A study of Drosophila melanogaster with 4 samples.

Results

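The peaks described here are those that mark trimethylation of lysine 4 of histone H3 (H3K4me3) on the scaffolds of mapped heterochromatin of Drosophila melanogaster. They were taken by the name of their sequence, all those ending in Het (2LHet, 2RHet, 3LHet, 3RHet, XHet and YHet), and numbered 289 of the 11572 peaks of the list. The list came from S2-DRSC cells, a male line derived from late embryos and kept in culture, with no genotype or treatment given that sets the libraries apart. The groups were H3K4me3 immunoprecipitates (2 libraries, rabbit polyclonal antibody) and input DNA (2 libraries), all from chromatin crosslinked with 1.8% formaldehyde for 15 min. A line is a model of its own genome only, whose rearrangements and copy numbers were not measured here. The 3 arms 2L, 3L and 3R, with 4416 peaks, served as the comparison.

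Heterochromatin is the gene-poor, repeat-rich chromatin around centromeres and on most of the Y chromosome. It is rich in methylated lysine 9 of histone H3 and in the protein HP1, and dense in transposable elements and satellite sequence. It nevertheless contains working genes, some of which depend on their heterochromatic setting. H3K4me3 is set by methyltransferases of the Set1 and Trithorax families around the start sites of active genes.

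Each peak carried a position and 1 score given by the authors, whose kind the list does not state. No peak carried a value per library, so neither a spread between replicates nor a test over samples could be given, and the read depth behind each peak is unknown. Intervals below are 95% intervals that cover counting error only and take peaks as independent, which neighbouring peaks are not. All positions are in FlyBase release 5. Neither the sequence nor the genes of that release were used here, so no gene is tied to a peak and no bases are shown. How uniquely reads could be placed in repeated sequence is not given by the list, and its part in the results below was not tested.

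The mark was thinly spread over the Het scaffolds. Their peaks numbered 32.9 per Mb of the span between the first and the last peak of each scaffold (95% exact Poisson interval 29.2 to 36.9), against 58.7 per Mb on 2L, 3L and 3R (56.9 to 60.4). The ratio was 0.561 (exact conditional interval 0.496 to 0.632). Peaks covered 3.74% of the Het span and 7.53% of the span of the 3 arms. Peaks with a score of at least 100 were thinner still, at 7.97 per Mb on Het (6.21 to 10.1) against 24.2 per Mb on the arms (23.1 to 25.3), a ratio of 0.330 (0.256 to 0.419). On chromosome 4, which is itself largely heterochromatic, density was 49.3 per Mb (37.8 to 63.2). Peaks covered 3.73% of the span of chromosome 4, close to the share on Het. Its high-scoring peaks, by the same limit of 100, had a density of 6.36 per Mb (2.75 to 12.5). That interval overlapped the one of Het, so neither low coverage nor few high-scoring peaks were particular to Het.

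The 6 scaffolds were unequal in size and in peaks. The scaffold 2RHet held 104 peaks over 3.23 Mb, 3RHet 80 over 2.42 Mb and 3LHet 73 over 2.50 Mb. The small scaffolds 2LHet, XHet and YHet held 17, 8 and 7 peaks over 339, 85.4 and 210 kb. Density on the 3 large ones was 32.2 per Mb on 2RHet (26.3 to 39.0), 33.1 on 3RHet (26.2 to 41.2) and 29.3 on 3LHet (22.9 to 36.8). It was 33.4 per Mb on YHet, 50.2 on 2LHet and 93.7 on XHet, but the interval of XHet ran from 40.5 to 185 and that of 2LHet from 29.2 to 80.4. All of these intervals overlapped except that of XHet with those of 2RHet and 3LHet, and the XHet value rests on 8 peaks. The span leaves out any sequence beyond the first and the last peak, which can raise the density most where peaks are few.

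Het peaks were narrower than arm peaks at the median. The median width on Het was 614 bp (exact order-statistic interval 555 to 709), against 1069 bp on the arms (1047 to 1089), a ratio of 0.574, and these intervals did not overlap. Peaks of up to 500 bp made up 39.1% of Het peaks (33.4 to 45.0) and 18.0% of arm peaks (16.9 to 19.1). The class of 1000 to 2000 bp, the most common on the arms with 41.6% of their peaks (40.2 to 43.1), held 19.0% on Het (14.7 to 24.0). Low median widths were not particular to Het. The median was 609.5 bp on chromosome 4 (475 to 840) and 708 bp on chromosome X (676 to 728). Peaks of up to 500 bp made up 45.2% of those on chromosome 4 (32.5 to 58.3). By scaffold the median width was 333 bp on 2LHet, 573.5 bp on 2RHet, 668 bp on 3LHet, 708 bp on 3RHet, 524.5 bp on XHet and 823 bp on YHet, each below the 1069 bp of the arms. The intervals of the scaffold medians overlapped each other. Those of 2LHet (266 to 1383), XHet (397 to 3171) and YHet (472 to 3761) held 1069 bp, and those of 2RHet, 3LHet and 3RHet lay below it.

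**Figure D1:**
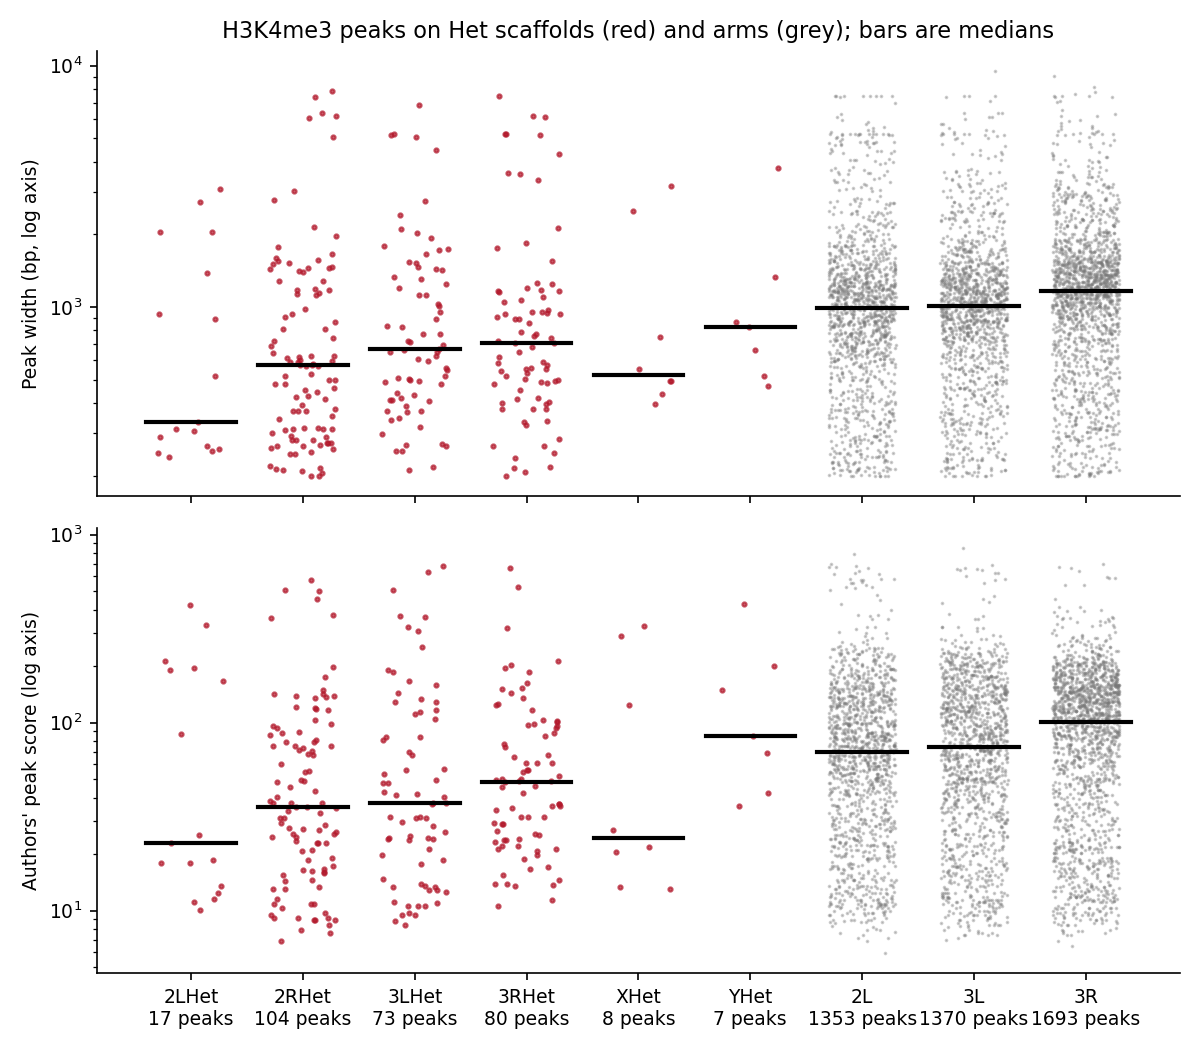
Width in bp (upper panel) and the authors' score (lower panel) of every peak, on log axes, for the 6 Het scaffolds in red and for 2L, 3L and 3R in grey, with black bars for medians. The width medians of all 6 Het scaffolds lie below those of the 3 arms, while single Het peaks reach 7861 bp and a score of 680.

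Scores were lower in the middle of the distribution but not at its top. The median score was 37.4 on Het (31.6 to 48.3) and 81.5 on the arms (78.4 to 84.5), a ratio of 0.459. Chromosomes 4 and X had median scores below that of Het, at 27.1 (20.9 to 41.9) and 30.3 (28.15 to 31.6). At the 25th percentile the scores were 19.8 on Het and 33.7 on the arms, at the 75th percentile 97.2 on Het and 140 on the arms, and at the 95th percentile 348 on Het and 231 on the arms. The last of these percentiles had an interval of 213 to 502 on Het, which holds the value of the arms. The 90th percentile of the score was 16.8 times the 10th on Het and 13.4 times on the arms, a ratio of 1.26 whose interval (0.991 to 2.10) holds 1. With peaks closer than 500 bp merged the ratio was 2.25. Scores of at least 300 were found for 20 Het peaks, 6.92% (4.28 to 10.5), and 98 arm peaks, 2.22% (1.81 to 2.70). These intervals did not overlap, and the share on Het was 6.02% to 8.13% with any single scaffold left out. The limit of 300 was chosen after the data were seen. On unplaced U the share was 5.20% (3.49 to 7.43), which overlapped that of Het, and on Uextra 3.24% (2.68 to 3.87), which did not. The 90th percentile of the score was 18.6 times the 10th on U and 15.4 times on Uextra.

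YHet stood highest by median score among the scaffolds and 2LHet lowest, but few peaks carry these values. The median score was 22.8 on 2LHet (13.6 to 191), 35.4 on 2RHet (26.1 to 49.0), 37.4 on 3LHet (24.8 to 53.6), 48.6 on 3RHet (34.3 to 60.9), 24.3 on XHet (13.0 to 326) and 85.1 on YHet (36.1 to 428). These intervals all overlapped, so no scaffold is separated from another in this order. Scores under 10 occurred on 2RHet (12 of its 104 peaks) and 3LHet (5 of 73) alone.

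Across the 289 Het peaks scores were higher the wider the peak (Spearman's rho 0.746), as they were across the 4416 arm peaks (0.821). Both values describe 1 list in which peaks share libraries. At like width the lower score of Het peaks was not general. Among peaks of up to 300 bp the median score was 13.0 on Het (10.9 to 18.7) and 11.5 on the arms (11.2 to 12.1), and among those of 300 to 500 bp it was 23.6 on Het (20.9 to 28.9) and 17.8 on the arms (16.9 to 19.0). Between 500 and 5000 bp the Het medians were the lower ones, with overlapping intervals in each class. They were 41.9 on Het (31.6 to 54.5) against 52.1 on the arms (50.02 to 54.3) for 500 to 1000 bp, and 74.8 on Het (61.1 to 116) against 118 on the arms (114 to 121) for 1000 to 2000 bp, where the overlap was smallest. From 2000 to 5000 bp the medians were 158 on Het (112 to 213) and 173 on the arms (165 to 179), and over 5000 bp they were 286 on Het and 283 on the arms.

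**Figure D2:**
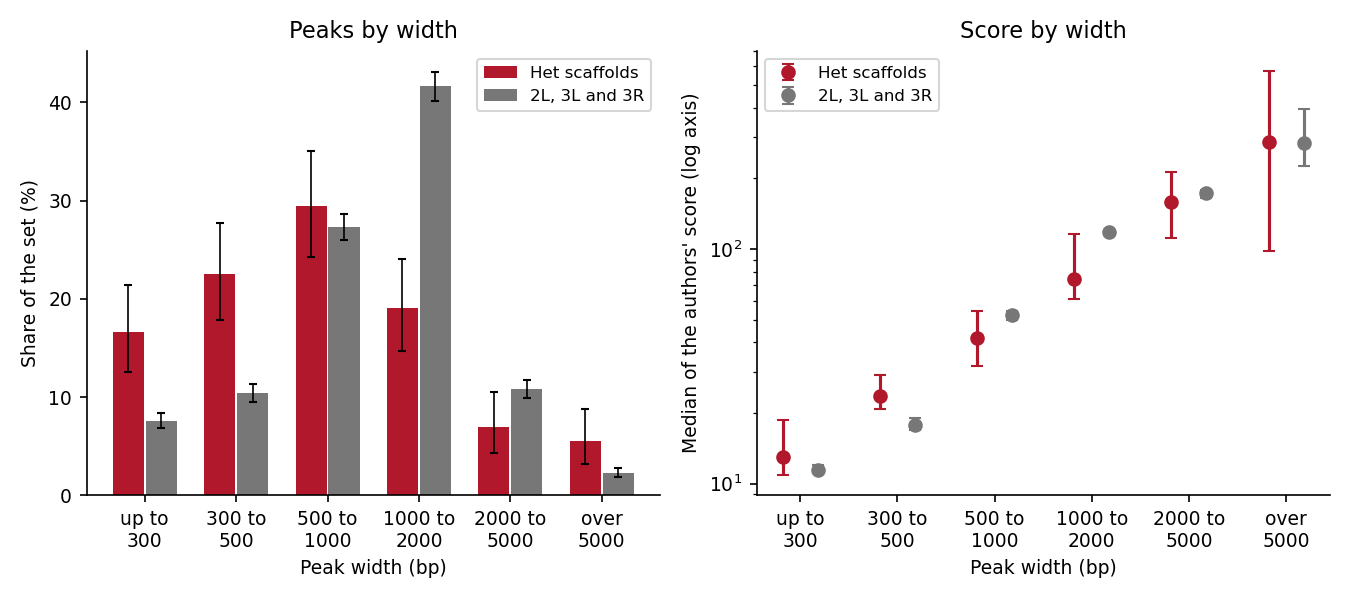
Share of peaks by width class in percent (left, bars with 95% Clopper-Pearson intervals) and median of the authors' score in each class on a log axis (right, with exact order-statistic intervals), for Het scaffolds in red and 2L, 3L and 3R in grey. Het has 39.1% of its peaks in the classes up to 500 bp, against 18.0% on the arms, and its median score lies below that of the arms between 500 and 5000 bp.

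The broadest Het peaks took a large share of the marked bases. Peaks wider than 2000 bp made up 12.5% of Het peaks (36 peaks, 8.88 to 16.8) and 13.1% of arm peaks (12.1 to 14.1), a difference well within the interval. Without 2RHet the Het share was 14.6%, above that of the arms. Peaks wider than 5000 bp made up 5.54% of Het peaks (16 peaks, 3.20 to 8.84) and 2.26% of arm peaks (100 peaks, 1.85 to 2.75), and these intervals did not overlap. The limit of 5000 bp was chosen after the data were seen. With any single scaffold left out the Het share stayed between 4.78% and 5.88%. With peaks closer than 500 bp merged, the shares over 5000 bp were 12.6% on Het and 7.30% on the arms, and those over 2000 bp 25.7% on Het and 32.9% on the arms. The widest 10% of the peaks held 42.5% of the bases in peaks on Het, against 30.1% on the arms. The 16 peaks over 5000 bp lay on 2RHet (6), 3RHet (6) and 3LHet (4). None of the 32 peaks of the 3 small scaffolds was as wide, which at this number allows a share of up to 9.38% (3 counts).

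Taken against the whole list of 11572 peaks, Het held 16 of the 200 widest and 14 of the 200 highest by score. That is 5.54% and 4.84% of all Het peaks, against 2.85% and 1.52% of the peaks of 2L, 3L and 3R. The 16 widest are the same peaks as the 16 over 5000 bp, so their count is not a second result. The widest Het peak, at 2RHet:2086289-2094149, spanned 7861 bp with a score of 375, and ranked 7 of the list by width. It stood alone, with no other peak for 333395 bp before it and 172199 bp after it. The highest score of the set, 680, belonged to 3LHet:666581-671746 (5166 bp) and ranked 11 of the list by score. The next highest were 668 at 3RHet:2448871-2454008 (5138 bp), the last peak of its scaffold, and 630 at 3LHet:1833996-1839190 (5195 bp).

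Of the 10 highest scores of the set, 4 lay on 2RHet, 3 on 3LHet, 2 on 3RHet and 1 on YHet, and 4 of them were also among the 10 widest. These were 2RHet:361679-369062 (7384 bp, score 574), 3RHet:845690-853173 (7484 bp, score 524), 3LHet:67737-74590 (6854 bp, score 506) and 2RHet:685381-691464 (6084 bp, score 456). Other broad peaks had modest scores. The peaks at 2RHet:1464419-1470627 (6209 bp) and 3RHet:153726-159899 (6174 bp) both scored 98.3 to 98.5, and 3RHet:58718-64846 (6129 bp) scored 104. The peak at 2RHet:854779-861135 (6357 bp) scored 137 and 3RHet:1392876-1398093 (5218 bp) scored 187. Over 5000 bp the scores of Het peaks thus ran from 84.0 to 680.

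Of the 13 Het peaks over 2000 bp with a score of at least 300, 8 stood alone, as did 38 of the 74 on the arms. Among Het peaks over 2000 bp, 10 had no other peak within 5 kb and a median score of 490 (175 to 668), and 18 had one within 500 bp and a median score of 145 (98.5 to 212), with intervals that overlap. The remaining 8 had their nearest peak between these limits. On the arms the same classes had medians of 257 (202 to 456, 83 peaks) and 174 (164 to 183, 320 peaks). Of the 10 lone Het peaks, 7 were wider than 5000 bp, and 8 reached a score of 300. The exceptions were 2RHet:3240000-3242780 (2781 bp, score 175) and 2RHet:198820-200962 (2143 bp, score 79.1), which were also the narrowest. Of the 83 lone arm peaks, 36 were wider than 5000 bp and 38 reached a score of 300. Lone peaks that were broad and high were thus not particular to Het.

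The high and broad peaks gathered at particular widths. Of the 8 Het peaks wider than 5000 bp with a score of at least 300, 3 were 5138 to 5195 bp wide with scores of 630 to 680, and 2 were 7384 and 7484 bp wide with scores of 574 and 524. All 5 stood alone, with no peak within 5 kb. The arms had the same columns of points. Of their 47 such peaks, 23 were 5062 to 5264 bp wide, with a median score of 640, and 16 were 7385 to 7509 bp wide, with a median score of 541. Of these, 19 and 13 had no other peak within 5 kb. The bands, 5000 to 5300 bp and 7300 to 7600 bp, were chosen after the widths were seen and are given as a description. Together they held 62.5% of the 8 Het peaks (24.5 to 91.5) and 83.0% of the 47 arm peaks (69.2 to 92.4), so the bands were not particular to Het. In the first band Het also had 4 peaks with scores of 84.0 to 196, none of which stood alone.

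**Figure D3:**
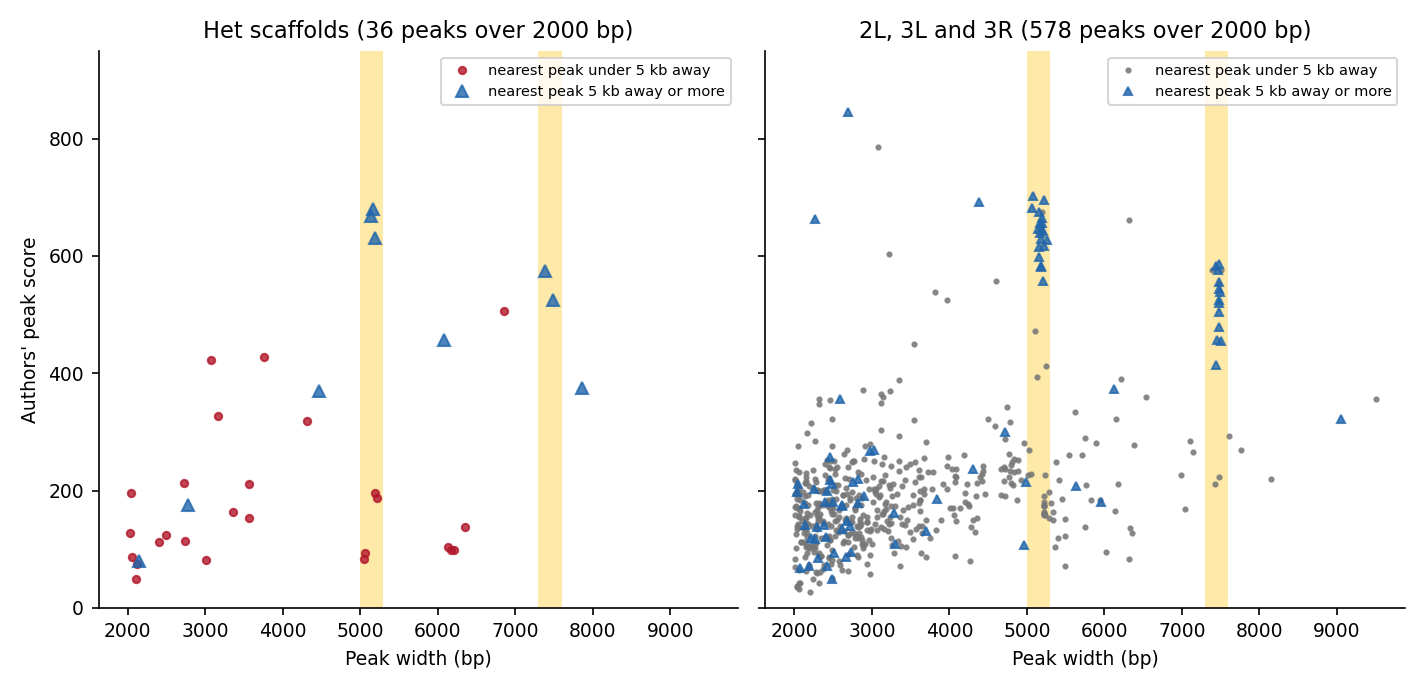
Authors' score against width in bp for all peaks over 2000 bp, on linear axes, for Het scaffolds (left, 36 peaks, red) and 2L, 3L and 3R (right, 578 peaks, grey), with blue triangles for peaks that have no other peak within 5 kb. The shaded bands mark 5000 to 5300 bp and 7300 to 7600 bp, where 5 lone Het peaks and 32 lone arm peaks with scores of at least 300 lie.

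Gaps between neighbouring Het peaks were both very short and very long. Of 283 gaps within scaffolds, 34.6% were shorter than 500 bp (29.1 to 40.5), against 31.2% of 4413 gaps on the arms (29.8 to 32.6), and these intervals overlapped. At the other end 31.4% of Het gaps were longer than 20 kb (26.1 to 37.2) and 9.19% longer than 100 kb (6.09 to 13.2). On the arms these shares were 19.4% (18.3 to 20.6) and 3.76% (3.22 to 4.37), below the Het intervals. Both limits were chosen after the data were seen. The share over 20 kb was not particular to Het, since chromosome 4 had 31.1% of its 61 gaps there (19.9 to 44.3). Over 100 kb chromosome 4 had 1.64% (0.0415 to 8.80) and unplaced U 4.47% (2.88 to 6.58), with intervals that overlap that of Het. Uextra had 0 of its 3579 gaps there. The median gap was 3482 bp on Het, with a wide interval of 1453 to 7500, and 2099 bp on the arms (1899 to 2374), so the medians are not separated. The quartiles show the spread better. The 75th percentile of the gaps was 111 times the 25th on Het (34552 and 310 bp) and 33.4 times on the arms (12773 and 382 bp). A difference in the share of close neighbours was not detectable at this number of peaks. With peaks closer than 500 bp merged, 48.1% of Het gaps and 28.2% of arm gaps were longer than 20 kb.

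**Figure D4:**
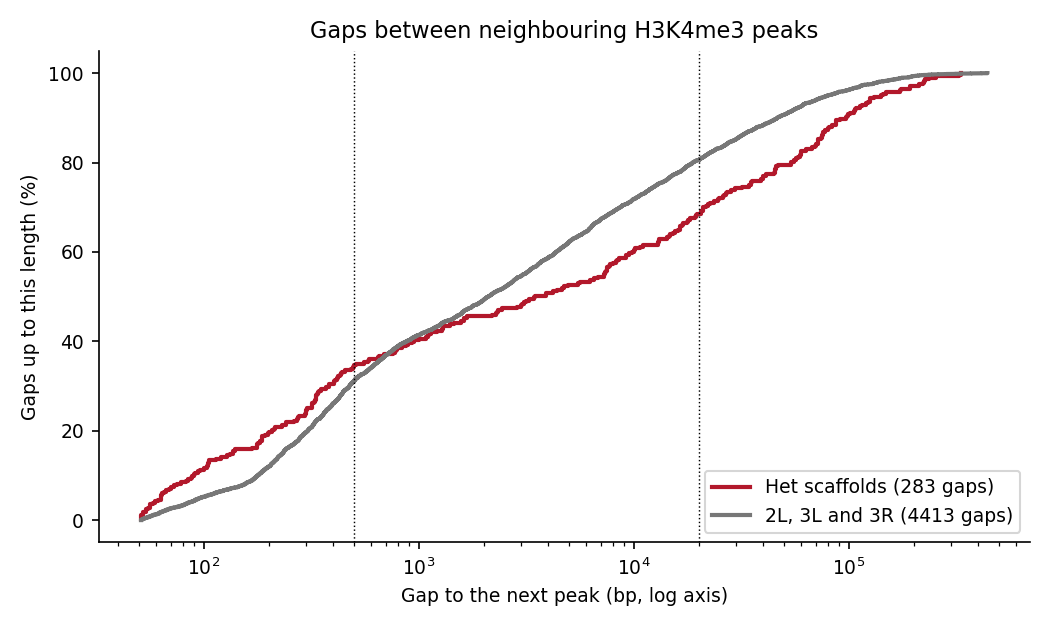
Cumulative share in percent of gaps between neighbouring peaks against gap length in bp on a log axis, for Het scaffolds in red (283 gaps) and 2L, 3L and 3R in grey (4413 gaps), with dotted lines at 500 bp and 20 kb. The Het curve lies above that of the arms up to 500 bp (34.6% against 31.2%) and below it at 20 kb, where 31.4% of Het gaps and 19.4% of arm gaps are still longer.

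The 5 longest stretches without a peak were 2RHet:1752894-2086288 (333 kb), 3LHet:1863305-2189959 (327 kb), 3RHet:2055243-2308323 (253 kb), 3RHet:202356-439015 (237 kb) and 3RHet:950750-1175725 (225 kb). Along the 3 large scaffolds, full bins of 250 kb held 1 to 19 peaks with a median of 7, against 0 to 66 with a median of 14 on the arms. All 32 Het bins held at least 1 peak. On 2RHet the fullest bins were 1 to 1.25 Mb, with 15 peaks, and 3 to 3.25 Mb, with 19, while 3 of the 4 bins between 1.75 and 2.75 Mb held 1 peak each. On 3RHet the bin from 1.75 to 2 Mb held 19 peaks. The ratio of the variance to the mean of these counts was 3.20 on Het and 5.23 on the arms. For like clumping this ratio rises with the count per bin, which was lower on Het, so the values do not rank the sets by clumping.

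Joining peaks less than 5 kb apart gave 140 islands on Het, of which 53.6% were single peaks (45.0 to 62.0). On the arms it gave 1667 islands, of which 39.2% were single peaks (36.8 to 41.6). Islands of 5 or more peaks held 27.0% of the peaks on Het and 39.9% on the arms. On Uextra 52.2% of islands were single peaks (49.8 to 54.5), and islands of 5 or more held 21.6% of its peaks. A high share of single peaks was thus not particular to Het. The largest Het islands, with 9 peaks each, were 2RHet:1118409-1129284 (10.9 kb) and 3RHet:439016-448455 (9.44 kb). In each width class the share of peaks that stood alone was higher on Het than on the arms. Of the 113 Het peaks of up to 500 bp, 27.4% had no other peak within 5 kb (19.5 to 36.6), against 16.0% of the 794 on the arms (13.5 to 18.7). Of those from 500 to 2000 bp, 24.3% were alone on Het (17.4 to 32.2) and 14.6% on the arms (13.3 to 15.9). Of those over 2000 bp the shares were 27.8% on Het (14.2 to 45.2) and 14.4% on the arms (11.6 to 17.5), with intervals that overlap. Neighbouring Het peaks less than 500 bp apart differed in score by a median of 1.83 times (1.64 to 2.36, 98 pairs), against 1.59 times on the arms (1.52 to 1.66), with intervals that overlap. The 90th percentile of that ratio was 7.22 on Het and 10.5 on the arms. Neighbours at least 5 kb apart differed by a median of 2.88 times on Het (2.31 to 3.77) and 2.05 times on the arms (1.94 to 2.20).

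Most groups of peaks less than 500 bp apart were single peaks, on 3RHet as well (33 of its 47 groups). Of the 191 such groups on Het, 131 were single peaks (68.6%) and 6 held 5 or more. On the arms 2077 of 3040 groups were single peaks (68.3%), so this share was not particular to Het. The 6 Het groups of 5 or more held 12.1% of Het peaks, and the 37 on the arms held 5.03% of arm peaks. Of the 6 on Het, 5 lay on 3RHet, where they held 36.3% of the peaks of the scaffold. The 3 largest, by number of peaks and then by length, were of almost equal length, which the group on 2RHet did not share. They were 3RHet:439016-445278 (7 peaks, 6263 bp), 3RHet:535342-541681 (6 peaks, 6340 bp) and 3RHet:695187-701524 (6 peaks, 6338 bp). In each the highest peak lay at one end, with a score of 151 as the last peak of the first group, 136 as the first peak of the second and 144 as the last peak of the third. The peak at the opposite end scored 67.2 in the first group, 85.3 in the second and 60.9 in the third. The peaks between the ends scored 25.2 to 61.1. The group at 2RHet:3007749-3012122, also of 6 peaks, was 4374 bp long, and its highest peak (score 360.5) was the fourth. The last 3 peaks of the first group matched the first 3 of the second in reverse order, with widths of 534, 1101 and 932 bp against 451, 1158 and 956 bp. By the same measure, a factor of 1.3 in widths and gaps, they also matched 3 peaks inside another group, 3RHet:2048710-2051593. Those were 541, 861 and 1064 bp wide in reverse order, with scores of 18.9, 26.5 and 56.3 against 31.6, 52.0 and 151. A match in width thus did not single out 1 pair.

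The other large groups of 3RHet also resembled each other. Their starts lay 65.6 kb apart, and each held 5 peaks over 7303 and 7390 bp. At 3RHet:1982264-1989566 the widths were 396, 940, 887, 577 and 3572 bp, in order along the scaffold, with scores of 96.1, 49.1, 20.9, 14.6 and 153. At 3RHet:2047853-2055242 the widths were 416, 1064, 861, 541 and 3565 bp, with scores of 101, 56.3, 26.5, 18.9 and 212. The order of the scores was the same in both. A like pair lay on 2RHet, within the largest island. There peaks of 481, 1502 and 1129 bp with scores of 138, 502 and 67.9 started at 1118409, and peaks of 428, 1516 and 1185 bp with scores of 116, 511 and 71.5 started at 1124216. The 1502 and 1516 bp peaks were among the 10 highest scores of Het.

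Such likeness was also found on the arms. Among runs of 3 neighbouring peaks on 1 sequence, read in either order, 6 of 10233 pairs of Het runs had all widths and gaps within a factor of 1.3 (0.0586%), against 680 of 3267037 pairs on the arms (0.0208%). All pairs within a sequence were compared, so their number grows faster than that of its peaks. The shares thus depend on sequence length and are not a like comparison. Per peak the arms had more such pairs, with 4416 peaks against 289. The Het share rests on 6 pairs, some of which overlap and were noticed before they were counted. A pair not described above had runs starting at 540414 and 1822500 on 3RHet. Its scores were 31.6, 85.3 and 23.8 against 10.6, 45.9 and 13.9. Whether the matching groups share sequence could not be checked without the genome of that release.

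**Figure D5:**
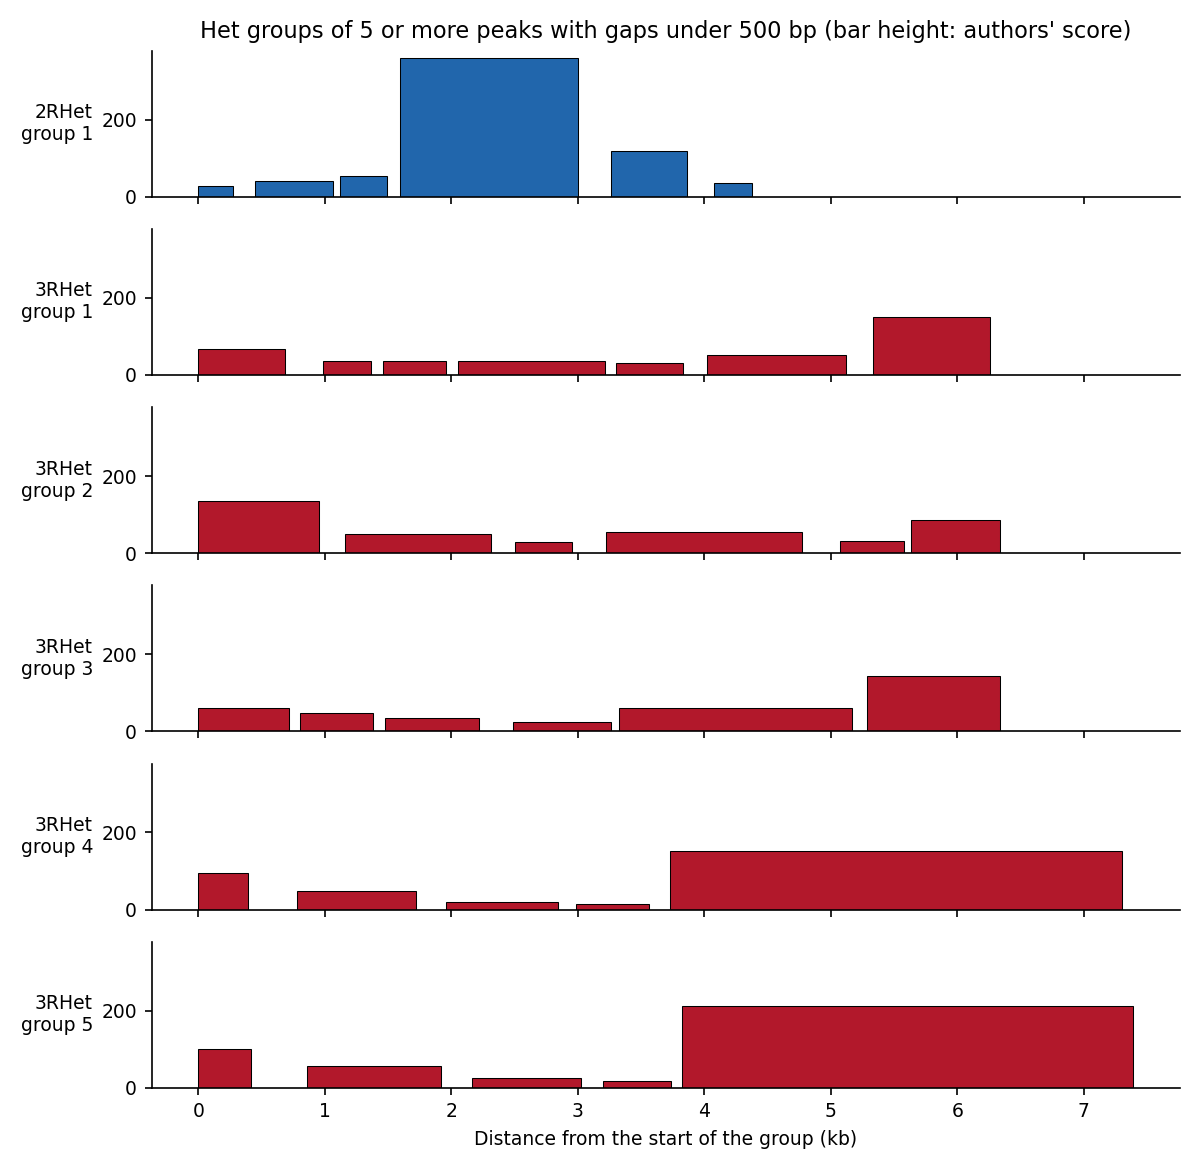
The 6 Het groups of 5 or more peaks with gaps under 500 bp, drawn to scale, with distance from the start of the group in kb on the x axis and the authors' score as bar height (2RHet in blue, 3RHet in red). Groups 1 to 3 of 3RHet are 6263 to 6340 bp long with the highest peak at one end, and groups 4 and 5 repeat one arrangement of 5 peaks over 7303 and 7390 bp.

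The sex chromosome scaffolds held few peaks, and all are given. On XHet the highest peak, 34980-38150 (3171 bp, score 326), was followed after 52 bp by one of 437 bp (score 20.5) and after 51 bp more by one of 2499 bp (score 124), so that 6210 bp were marked almost without a break. The first peak, at 16-764, scored 289 and lay at the very start of the scaffold, so its extent before that point cannot be seen. The other 4 were 397 to 554 bp wide with scores of 13.0 to 26.9. On YHet the highest and widest peak was 71699-75459 (3761 bp, score 428), with a second of 823 bp and score 150 starting 133 bp after it. The others were 133278-134603 (1326 bp, score 68.7), 137041-137559 (519 bp, score 200), 154465-155330 (866 bp, score 42.2), 155421-155892 (472 bp, score 36.1) and 280864-281529 (666 bp, score 85.1). No YHet peak scored under 36.1. Peaks on the scaffold of the Y chromosome were thus present in this line, which is labelled male, but 7 peaks leave every share on it uncertain.

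The parts of the arms next to the heterochromatin differed among themselves. In the last 1 Mb of 2L before its last peak the median width was 639.5 bp (424 to 903) and the median score 24.9 (18.9 to 37.1) over 88 peaks. In the last 1 Mb of 3L they were 667 bp (342 to 815) and 29.4 (18.7 to 57.9) over 37 peaks. Both are near the 614 bp and 37.4 of Het and have intervals that hold these values or, for the score on 2L, end just below. In the first 1 Mb of 3R they were 1230.5 bp (1069 to 1375) and 102 (80.3 to 122) over 66 peaks, above those of Het. Unplaced sequence differed from Het in breadth. On Uextra the median width was 421 bp (410 to 431) and 1 of 3580 peaks was wider than 2000 bp, while its median score, 39.0 (36.1 to 42.2), lay within the interval of Het.

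The peaks with the highest scores were also described by themselves. Among the 5786 highest-scoring peaks of the whole list were 109 Het peaks, 37.7% of the set (32.1 to 43.6), and 2749 arm peaks, 62.3% (60.8 to 63.7). Within that selection the median width was 1409 bp on Het (1173 to 1541) and 1321 bp on the arms (1295 to 1347). The share wider than 2000 bp was 32.1% on Het (23.5 to 41.7), against 20.6% on the arms (19.1 to 22.2), with intervals that did not overlap. The intervals of the median widths overlapped. The selection uses the score, which goes with width, so it describes the upper end of the list and is no test of the contrasts above.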

How the data were processed

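Titles gave the groups, H3K4me3 immunoprecipitate (2 libraries) and input (2). Whether replicates came from separate cultures is not stated. The only file is 1 list of peaks, each with a score deposited by the authors. It names MACS and FlyBase release 5, per the file headers. CASAVA 1.7.0.2, CASAVA 1.7.0.3, BWA, MACS2 and BDGP5 are named, per the submitters' processing notes, without a role. The sources used here do not give the threshold, the use of input, the pooling of replicates or the kind of score. A score can follow depth and copy number, so scores were compared within this list only.

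Starts were taken as counted from 0, since 1 peak of the list starts at 0, and are printed from 1. Width is the end minus the deposited start. The smallest width in the list was 200 bp and the smallest gap 51 bp. Densities use the span from first to last peak. Intervals are Clopper-Pearson (shares), exact Poisson (densities) and exact order-statistic (medians). The interval of the ratio of score spreads is that of the Het 90th percentile alone. The interval functions were tested on simulated data. Peaks named are the 10 highest and 10 widest of Het, the highest and widest of each scaffold, the 5 longest gaps, the 3 largest groups and all peaks of scaffolds with under 10 peaks. Other peaks named were chosen after their values were seen. The members, classes and limits were chosen with earlier results of these data known. The limits of 5000 bp, a score of 300, 20 kb and 100 kb, the islands, lone peaks, bins, arm ends, width bands and matching runs were added after seeing the data. The gene table at hand is of release 6 and was not used. Versions were scipy 1.17.1, pandas 2.3.3, numpy 2.4.6 and matplotlib 3.10.9 under Python 3.11.15.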

Additional observations from a re-analysis of the deposited data

How the results depend on the processing

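Of 142 recalculated values, 123 stayed within the interval of the reported value on the same side of the arms. Where a Het share was set against other arms it could not change, so it lay within its interval by construction. Leaving out XHet or YHet removed only 8 or 7 of the 289 peaks. For the values that did not stay the cause was not tested, though keeping just the 5786 highest-scoring peaks selects on the score by construction. With that selection the density ratio of Het to arms was 0.351, the width ratio 1.07, the share wider than 2000 bp 32.1%, the score ratio 1.02, the share of gaps under 500 bp 22.3% (24.1% on the arms) and the median gap ratio 6.51, so the sign of 4 of these contrasts turned, but the Het and arm intervals of width and score overlapped, and such a selection is no test of them. Merging peaks closer than 500 bp gave a width ratio of 0.849, a wide share of 25.7% (32.9% on the arms), a score spread ratio of 2.25, 12.6% wider than 5000 bp (7.30% on the arms) and 48.1% of gaps over 20 kb (28.2% on the arms). Against 3R alone the score ratio was 0.369. Against 3L alone the wide share of 12.5% was above the arm (11.3%), and without 2RHet it was 14.6%. By width class the score ratio was 1.13 (up to 300 bp), 1.33 (300 to 500 bp), 0.804 (500 to 1000 bp), 0.635 (1000 to 2000 bp) and 1.01 (over 2000 bp), in place of 0.459. Alternatives for the shares over 5000 bp, scores of at least 300 and gaps over 20 kb were added after seeing the data. The share of close gaps cannot be given after merging, and densities per sequence length were not run, since lengths of that release were not used here. No paired analysis was possible because no peak has a value in any single library, which also kept single libraries from being left out. Unknown depth limits statements on weak peaks.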
